A study of Macaca fascicularis with 16 samples.

Results

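The type I interferon response genes are the transcripts that cells raise when type I interferon reaches them. A list of 41 such genes was followed in endometrium from 16 female cynomolgus macaques, Macaca fascicularis, past menopause. A gene was taken where the annotation of the array gave a probe set this gene's symbol alone. That held for 32 of the 41, of 14132 annotated genes in all. Each was read from its probe set with the highest mean log2 value over the 16 arrays. By mean linear signal 31 of the 32 would have the same probe set, all but IRF7. IFIT5, IFI6, IFI44L, RSAD2, HERC5, IRF9, USP18, SAMD9 and EIF2AK2 were not followed, and DDX58 is annotated under its newer symbol RIGI. Of the 32, 29 were bright enough to be tested, among 10705 tested genes. OASL, RIGI and EPSTI1 lay below the filter on dim probe sets.

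The animals had been randomized to 4 arms of 4 and treated for 4 months, and each gave 1 array of total RNA. The estradiol arm received micronized estradiol (0.25 mg in every 1800 kcal), and the tamoxifen arm the selective estrogen receptor modulator tamoxifen (20 mg in every 1800 kcal). The combination arm received both drugs at these doses, and the control arm received placebo. The controls share the postmenopausal state of the treated animals. The array design is that of a close relative, the rhesus macaque.

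Type I interferons are secreted when sensor proteins find viral or misplaced nucleic acid in a cell. They bind a receptor of the subunits IFNAR1 and IFNAR2, whose kinases switch on transcription factors that include STAT2 and IRF9. These turn on a large set of genes at once, most of which interfere with viral entry, replication or release. Some products, such as the sensors and IRF7, feed back to make more interferon. In the uterus the response is best known from early pregnancy and from infection.

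Values are array signals on the linear scale that the authors deposited, in arbitrary units. Changes are differences of mean log2(signal + 4.80) between arms, the first arm named minus the second, with the standard error (SE) of limma's fit to all 16 arrays. A gene was called where the p-value, adjusted over all 31659 probe sets tested, was below 0.05. The pseudocount shrinks the changes of dim genes, and signals of different genes are not comparable as amounts of RNA. With 4 arrays in an arm, precision is limited. Median signals of the 16 arrays ran from 58.7 to 70.3. Epithelium and stroma markers were present on every array, with EPCAM between 629 and 3063 and the stromal gene DCN between 2234 and 9538. Estradiol 4 and tamoxifen 1, named by arm and animal, stood apart in tissue makeup, with smooth muscle marker scores of -4.67 and -0.75. On the other 14 arrays this score, a mean log2 deviation of 4 genes from their means over all arrays, ran from -0.042 to 0.74.

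Single animals stood out in the interferon genes. Tamoxifen 3 was the highest of the 4 tamoxifen arrays in 22 of the 29 tested genes, where this array was the highest of its arm in 21.0% of all tested genes. Control 2 was the highest control in 20 of 29, against 35.6% of all genes. Combination 4 was the highest of its arm in 20 of 29, against 28.0% of all genes. In the estradiol arm no animal led to this extent: the 4 arrays were highest in 6, 4, 6 and 13 of 29, against 21.2%, 21.1%, 23.8% and 33.9% of all genes.

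Tamoxifen 3 lay far above its arm in many of the genes. In 11 of 29 genes this array lay more than 1 on the log2 scale above the median of the other 3 arrays of its arm, as it did in 1.09% of all tested genes. For control 2 and combination 4 the number was 5 of 29 each, against 1.15% and 1.35% of all genes. MX1, a dynamin-like GTPase that blocks virus replication, had signals of 319.9, 154, 194 and 119 in the estradiol arm, 142, 203, 1191 and 256 in the tamoxifen arm and 313, 139, 114 and 455 in the combination arm, against 443, 1214, 335 and 270.4 in the control arm. Tamoxifen 3 and control 2 were the highest of the 16 by a wide margin, and the arms overlapped. In tamoxifen 3 the MX1 signal was 5.88 times the median of the other tamoxifen arrays, and in control 2 it was 3.62 times that of the other controls. ISG15, a ubiquitin-like protein that is attached to newly made proteins, had signals of 136, 125, 85.8 and 138 in the estradiol arm, 135, 75.8, 457 and 91.6 in the tamoxifen arm and 134, 104, 52.1 and 187 in the combination arm, against 127, 329.5, 108 and 102 in the control arm. Here too tamoxifen 3 and control 2 led, at 4.98 and 3.04 times the median of the other arrays of their arms.

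IFI27, a mitochondrial protein among the most strongly interferon-induced transcripts of blood and tissue, showed a different pair of leading arrays. Its signals were 137, 364, 342 and 129 in the estradiol arm, 386, 476, 1856 and 365 in the tamoxifen arm and 189.5, 116, 70.0 and 873 in the combination arm, against 499, 497, 193 and 654 in the control arm. Tamoxifen 3 stood at 4.81 times and combination 4 at 7.50 times the median of the other arrays of their arms, while control 2 was level with control 1. IFI44, a cytoplasmic antiviral protein, had signals of 240.5, 195, 174 and 135 in the estradiol arm, 214, 189, 935 and 226 in the tamoxifen arm and 259, 197, 152 and 546 in the combination arm, against 337, 521, 233 and 294 in the control arm. Tamoxifen 3 was the highest array, followed by combination 4 and control 2. In OAS2, the oligoadenylate synthetase of middle size, the same 3 arrays were highest, with 142 in tamoxifen 3, 109 in combination 4 and 128 in control 2, where the other 13 ran from 36.6 to 72.2. The dim sensor gene RIGI, which was not tested, reached 218 in tamoxifen 3, 126 in tamoxifen 2 and 119.9 in control 3, and lay between 18.2 and 37.1 on the other 13. OASL, also not tested, reached 85.3 in tamoxifen 3, 58.4 in combination 4 and 64.7 in control 2. EPSTI1, the other gene not tested, was highest of their arms in tamoxifen 4 at 24.2, combination 4 at 30.5 and control 1 at 38.2.

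At the other end, combination 3 was the lowest of the 16 arrays in 9 of 29 genes, as it was in 5.31% of all tested genes. These 9 included IFI27, MX1, MX2, ISG15, CMPK2 and PARP12. The within-arm standard deviation of the 29 genes had a median of 0.46 in the tamoxifen arm, 0.34 in the combination arm, 0.20 in the estradiol arm and 0.29 in the control arm, on the log2 scale. Over all tested genes the medians were 0.22, 0.18, 0.23 and 0.21 in the same order. The interferon genes were thus the more variable in 3 arms and slightly the less variable with estradiol.

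**Figure D1:**
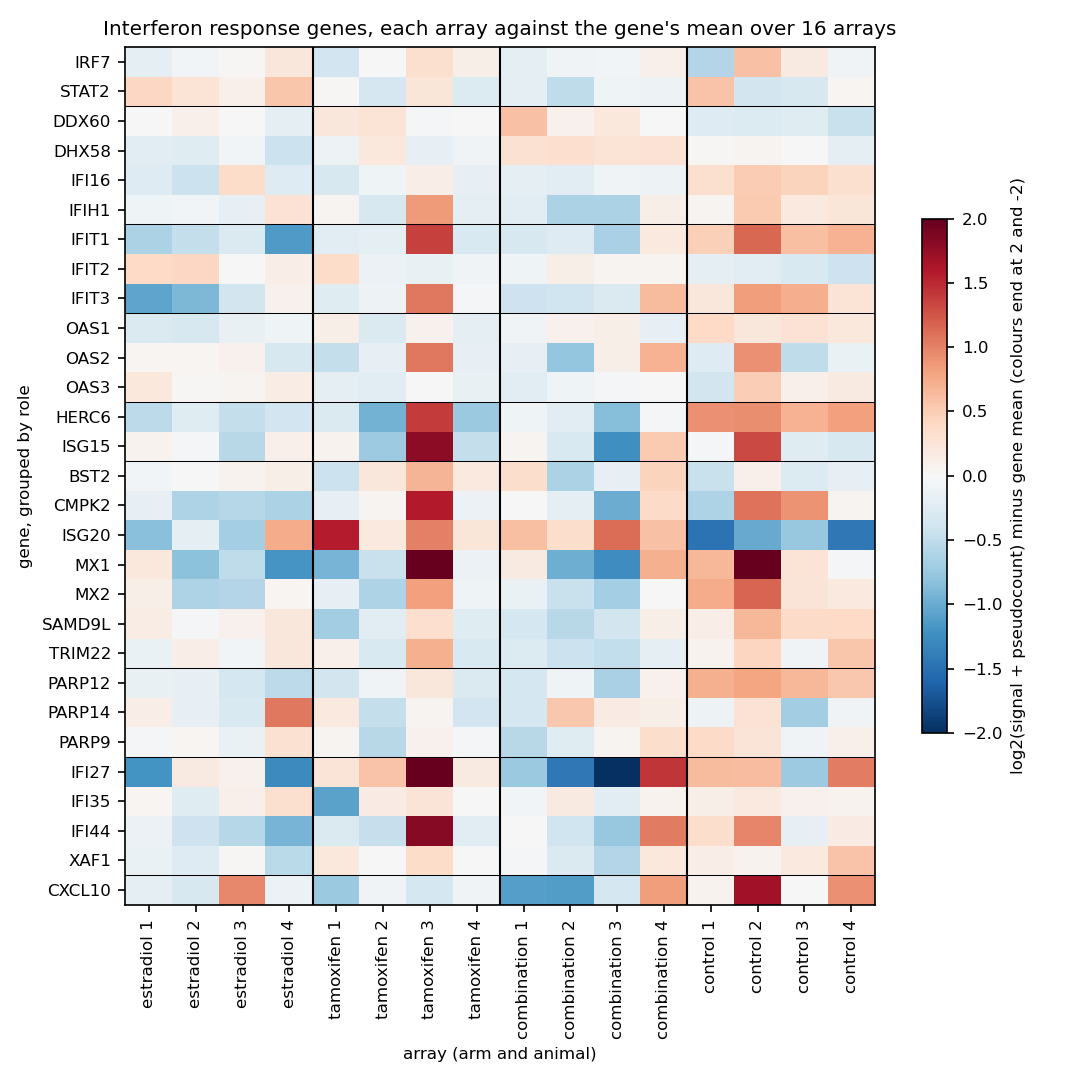
Log2(signal + 4.80) minus each gene's average on the 16 arrays, for the 29 tested genes (rows, grouped by role) on each array (columns, grouped by arm). Tamoxifen 3, combination 4 and control 2 show as red columns through most rows, with scores of 0.69, 0.29 and 0.56, while IFIT2, OAS1, DDX60 and DHX58 do not share these columns.

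A score per array, averaging over the 29 genes how far log2 signal lay from that gene's 16-array average, sums up these differences. It was -0.15, -0.19, -0.13 and -0.12 in estradiol 1 to 4, -0.13, -0.17, 0.69 and -0.13 in tamoxifen 1 to 4 and -0.14, -0.30, -0.36 and 0.29 in combination 1 to 4, against 0.092, 0.56, 0.054 and 0.14 in control 1 to 4. The arm means were -0.15 ± 0.029, 0.064 ± 0.42 and -0.13 ± 0.29 in the estradiol, tamoxifen and combination arms, against 0.21 ± 0.23 in the control arm (SD, n = 4 each). All 4 estradiol arrays lay below all 4 controls, and tamoxifen 3 and combination 4 were the arrays of their arms that did not lie below all controls. The median deviation of all tested genes stayed between -0.023 and 0.051 on every array. No p-value is given for the score, since the genes were chosen with results known.

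Leukocyte markers moved with part of this pattern. The score of 4 measured leukocyte markers of 5 listed was 0.18, -0.039, 0.49 and -0.30 in the estradiol arm, -1.20, -0.074, -0.021 and -0.18 in the tamoxifen arm and -0.35, -0.81, -0.998 and 0.33 in the combination arm, against 0.48, 1.33, 0.50 and 0.65 in the controls. Control 2, combination 4 and tamoxifen 3 had the highest leukocyte score of their arms, tamoxifen 3 by little over tamoxifen 2 and 4. The summed signal of these markers ran over 1219 to 2135, 594 to 1386 and 696 to 1814 in the estradiol, tamoxifen and combination arms, against 2051 to 3529 in the controls, and no marker was at 0 on any array. Of the 4 markers 1 fell with estradiol, 1 with tamoxifen and 3 with the combination. Among all tested genes 13.2%, 7.64% and 9.09% fell. PTPRC, the pan-leukocyte antigen CD45, had signals of 612, 564, 973 and 336 with estradiol, 168, 476, 396 and 461 with tamoxifen and 407, 195, 233 and 674 with the combination, against 819, 1023, 876 and 1409 in the controls. It fell with tamoxifen, at a log2 change of -1.52 (SE 0.40, adjusted p = 0.0224), and with the combination, at -1.58 (SE 0.40, adjusted p = 0.0165).

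Of 5 measured markers of T and NK cells, of 11 listed, 0 passed with estradiol, 3 fell with tamoxifen and 4 fell with the combination. Their score was 0.41, 0.87, 0.30 and -0.10 with estradiol, -0.46, -0.10, -0.035 and -0.74 with tamoxifen and -0.087, -1.18, -1.48 and -0.38 with the combination, against 0.34, 1.40, 0.93 and 0.32 in the controls. Their summed signal ran over 1585 to 4195, 732 to 1535 and 381 to 1794 in these arms, against 1341 to 4564 in the controls. Tamoxifen 3 and control 2 were the highest of their arms here too. In the combination arm combination 1 led at -0.087, and combination 4 lay below it at -0.38. Of the 6 macrophage and monocyte markers tested 1 fell with the combination and 0 passed with either drug alone. The marker lists for plasmacytoid dendritic cells and for B and plasma cells each had 2 tested genes of 6 listed. Of these genes IRF8 rose with estradiol and no other passed against control. For plasmacytoid dendritic cells these were TCF4 and IRF8, since CLEC4C, LILRA4, IL3RA and SPIB had no probe set annotated to them alone. IRF8 is also counted among the transcription factors below. With these 2 genes the score cannot be read as an amount of these cells. The plasmacytoid score was 0.32, 0.48, 0.23 and 0.91 with estradiol and 0.34, -0.56, -0.052 and -0.037 with tamoxifen. It was -0.099, -0.29, -0.48 and 0.42 with the combination, against -0.57, 0.044, -0.21 and -0.44 in the controls. Estradiol 4 was its highest array, and tamoxifen 3 lay below tamoxifen 1 and 4. The score of the B and plasma cell markers, CD79B and JCHAIN, was 0.39, -0.23, 0.056 and 0.32 with estradiol, -0.41, -0.59, 0.47 and -0.29 with tamoxifen and -0.087, -0.65, -0.31 and 0.49 with the combination, against -0.18, 0.95, 0.16 and -0.076 in the controls. Tamoxifen 3, combination 4 and control 2 were the highest of the 16 arrays in this score, as they were in the interferon score. Stroma markers rose in 4 of 7 with estradiol and in 3 of 7 with tamoxifen and with the combination, and endothelium markers fell in 3 of 6 with estradiol and 1 of 6 in either other arm. No smooth muscle marker passed. Over all tested genes 16.5%, 8.59% and 10.6% rose and 13.2%, 7.64% and 9.09% fell with estradiol, tamoxifen and the combination. Epithelium markers rose in 3 of 6 in each treated arm, with EPCAM at 1.23, 1.15 and 1.47 in the estradiol, tamoxifen and combination arms relative to placebo. In whole tissue, fewer cells of a type and less RNA per cell cannot be told apart, and the part of these cell shares in the interferon values was not tested.

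**Figure D2:**
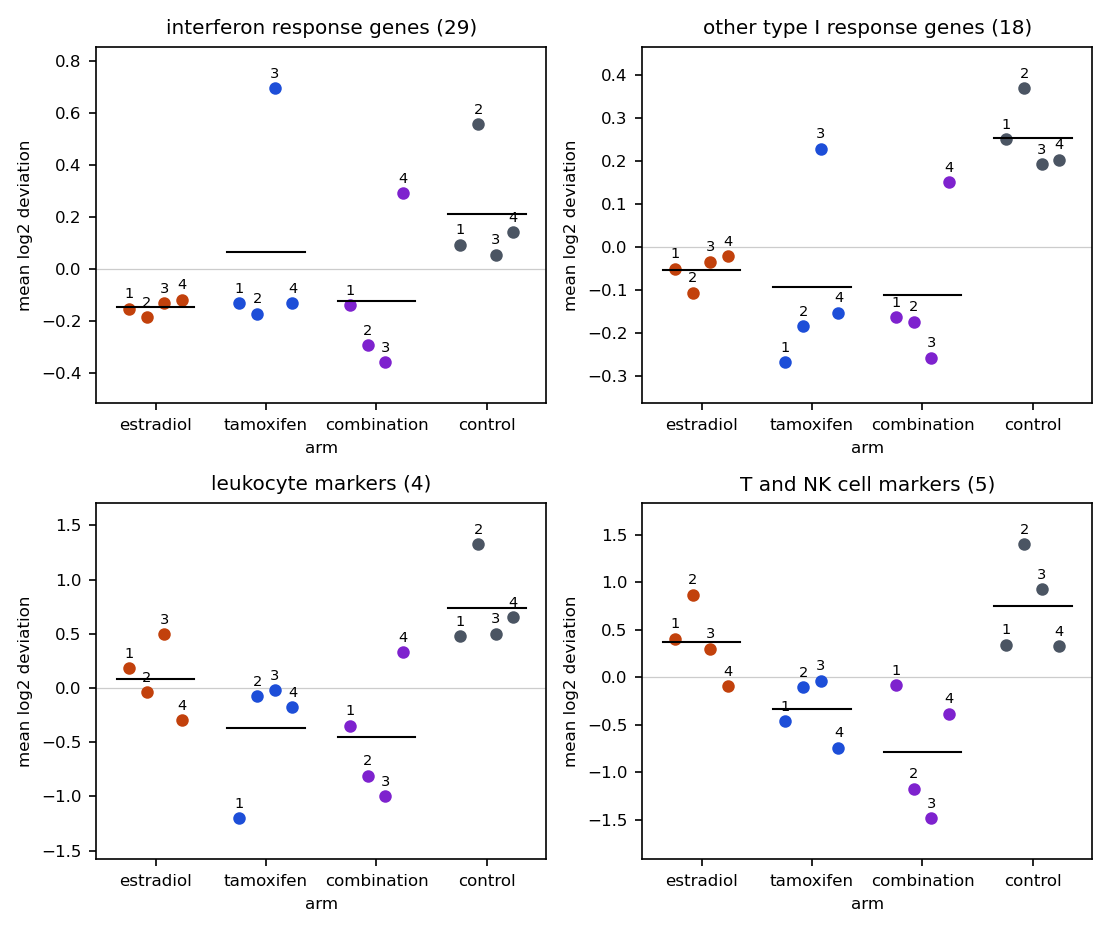
Mean log2 deviation from the genes' means over 16 arrays (vertical axis) for each array, by arm, for the 29 interferon response genes, 18 further type I response genes, 4 leukocyte markers and 5 T and NK cell markers. Points carry the animal's number and lines are arm means; control 2 is the highest control in all 4 panels, and tamoxifen 3, at 0.69 in the interferon panel, is at -0.021 in the leukocyte panel.

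The comparisons with placebo ask what each treatment does to the tissue. Estradiol lowered 7 of the 29 interferon response genes and raised 1, so that 27.6% passed. The raised gene, IFIT2, has probe sets that were called in both directions. Of all tested genes 29.7% passed, 13.2% lower and 16.5% higher. Tamoxifen lowered 4 and raised 2, which is 20.7% against 16.2% of all genes, 7.64% lower and 8.59% higher. The combination lowered 6 and raised 3, which is 31.0% against 19.7% of all genes, 9.09% lower and 10.6% higher. The share called was below that of all genes for estradiol and above it for tamoxifen and the combination, and no test of these shares was made. The median change was -0.29, -0.16 and -0.41 for estradiol, tamoxifen and the combination, beside 0.011, -0.018 and -0.013 over all tested genes. Changes below 0 were seen in 22, 22 and 23 of 29 genes. The arms did not overlap in 9 of the 29 genes for estradiol, 7 for tamoxifen and 12 for the combination. Of all genes 28.4%, 22.7% and 29.1% did not overlap. Lower without overlap were 7, 4 and 8 of the 29, where 13.0%, 11.6% and 13.9% of all genes were. These 3 comparisons share the control arrays, control 2 included, so that their directions are not independent.

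These counts changed when single arrays were left out, high ones and others. Without control 2, 6 genes passed for estradiol, 2 for tamoxifen and 5 for the combination, with median changes of -0.18, -0.13 and -0.31. Without tamoxifen 3, 8 genes passed for tamoxifen, 6 of them lower, and the median change was -0.41. Without combination 4, 7 passed for the combination and the median change was -0.56. The tamoxifen count was 3 without control 3, control 4, tamoxifen 1, tamoxifen 2 or tamoxifen 4, and the combination count was 4 without combination 1, 2 or 3 and 5 without control 1. Over the 8 fits of a comparison that left out 1 of its arrays, 22.4 to 32.1% of all tested genes passed for estradiol, 10.8 to 15.6% for tamoxifen and 12.5 to 16.2% for the combination. The calls that held in all 8 fits without 1 array of the arms compared were IFIT1, IFIT2, IFI16, OAS1 and PARP12 for estradiol, ISG20 and PARP12 for tamoxifen, and IFI16, ISG20, DDX60 and PARP12 for the combination. These fits use the brightest probe set of each gene. Their SE pools the spread of all 4 arms. Tamoxifen 3 thus counts in the SE of the estradiol and combination comparisons with control, whose fits did not leave it out. The actin control probe sets, which report on the integrity of the RNA, had a ratio of the 3' to the 5' reading that on the log2 scale was 0.41 to 0.83 in the estradiol arm, 0.47 to 0.57 in the tamoxifen arm and 0.48 to 0.64 in the combination arm, against 0.76 to 1.02 in the controls, with estradiol 4 among the controls. For GAPDH the ratio was -0.19 to -0.036 in the estradiol arm, -0.16 to 0.036 in the tamoxifen arm and -0.032 to 0.041 in the combination arm, against 0.11 to 0.24 in the controls, and all 12 treated arrays lay below all controls. The part of RNA integrity in these changes was not tested.

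**Figure D3:**
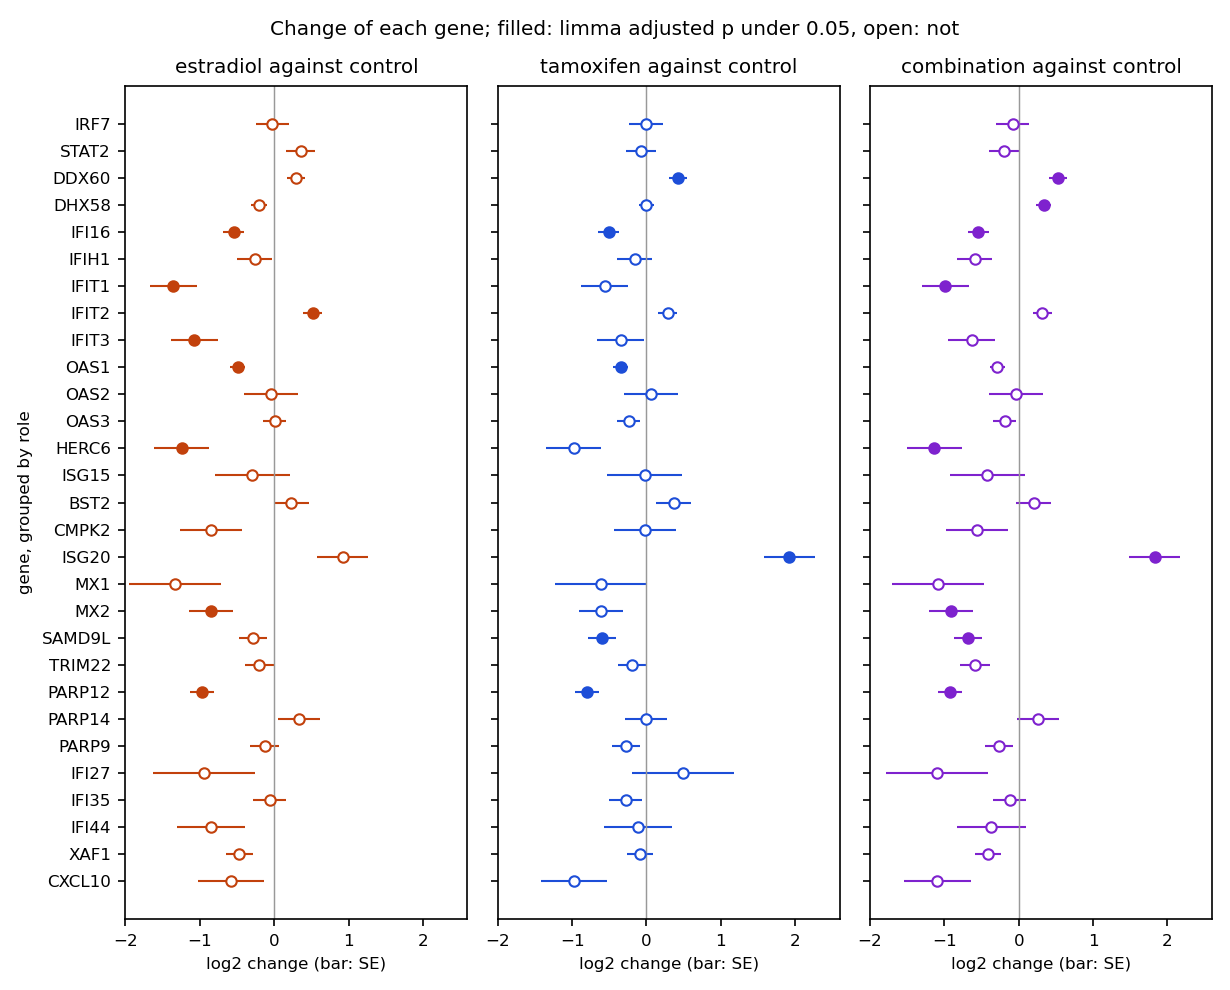
Change of log2(signal + 4.80) of each of the 29 genes (rows, grouped by role) in the 3 treated arms relative to placebo (1 panel each), with bars of 1 SE from limma's fit and filled points for adjusted p below 0.05. PARP12 (-0.97, -0.80 and -0.93) and IFI16 (-0.54, -0.51 and -0.54) are filled on the left in all 3 panels, and ISG20 (1.92 and 1.83) on the right with tamoxifen and the combination.

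PARP12, an ADP-ribosyltransferase that restrains several RNA viruses, fell in every treated arm. Its signals were 340.2, 337, 294 and 261 in the estradiol arm, 290.1, 357, 444 and 308 in the tamoxifen arm and 294, 355, 238 and 401 in the combination arm, against 623, 653, 601 and 547 in the control arm. All 12 treated arrays, tamoxifen 3 included, lay below all 4 controls. It fell by 0.97 (SE 0.16, adjusted p = 0.000792) with estradiol, by 0.80 (SE 0.16, adjusted p = 0.00626) with tamoxifen and by 0.93 (SE 0.16, adjusted p = 0.00215) with the combination. Its relatives on the list did not pass in any of these comparisons. PARP9, which acts with a ubiquitin ligase partner in DNA repair and antiviral defence, had changes of -0.13, -0.28 and -0.27 for estradiol, tamoxifen and the combination. PARP14, a large ADP-ribosyltransferase of immune cells, had 0.33, -0.0077 and 0.26.

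The sensors of foreign nucleic acid did not move together. IFI16, a sensor of DNA in nucleus and cytoplasm, had signals of 1500.1, 1326, 2314 and 1491 in the estradiol arm, 1431, 1684, 1963 and 1603 in the tamoxifen arm and 1578, 1538, 1696 and 1667 in the combination arm, against 2234, 2533, 2439 and 2244 in the control arm. All treated arrays lay below the controls, except estradiol 3, which lay among them. IFI16 fell by 0.54 (SE 0.14, adjusted p = 0.0111) with estradiol, 0.51 (SE 0.14, adjusted p = 0.0275) with tamoxifen and 0.54 (SE 0.14, adjusted p = 0.0176) with the combination. The tamoxifen call did not hold without control 2, control 3, tamoxifen 1 or tamoxifen 4, with adjusted p up to 0.0816. IFIH1, which encodes the RNA sensor MDA5, did not pass, at -0.26, -0.16 and -0.59.

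DDX60, a helicase that assists the RNA sensors, had signals of 943, 1006, 943 and 823 in the estradiol arm, 1102, 1131, 910.3 and 941 in the tamoxifen arm and 1406, 995, 1089 and 939 in the combination arm, against 781, 773, 789.97 and 686 in the control arm. All 12 treated arrays lay above all 4 controls. It rose by 0.42 (SE 0.12, adjusted p = 0.0322) with tamoxifen and by 0.53 (SE 0.12, adjusted p = 0.00969) with the combination, and its change with estradiol was 0.29 (SE 0.12, adjusted p = 0.0937). The tamoxifen call was lost in 5 of the 8 fits without 1 array, with adjusted p up to 0.0845. DHX58 encodes LGP2, a relative of the RNA sensors that tunes their activity. Its signals were 614, 601, 684 and 528 in the estradiol arm, 662, 829.9, 637 and 677 in the tamoxifen arm and 885, 901, 868 and 873 in the combination arm, against 723, 738, 710.2 and 625 in the control arm. The 4 combination arrays lay within a narrow range above the other 12 arrays, of which tamoxifen 2 came nearest. DHX58 rose by 0.34 (SE 0.10, adjusted p = 0.0367) with the combination, a call lost in 7 of 8 fits without 1 array (adjusted p up to 0.0968).

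In the IFIT family, whose members bind viral RNA, IFIT1 had signals of 175, 195, 223 and 122 in the estradiol arm, 236, 237, 710.1 and 222 in the tamoxifen arm and 218, 227, 173 and 313 in the combination arm, against 382, 609.6, 417 and 444 in the control arm. All estradiol and all combination arrays lay below all controls, whereas tamoxifen 3 was the highest of the 16. IFIT1 fell by 1.36 (SE 0.32, adjusted p = 0.00615) with estradiol and by 0.99 (SE 0.32, adjusted p = 0.0466) with the combination, and the combination call was lost in 7 of 8 fits without 1 array (adjusted p up to 0.121). The change with tamoxifen was -0.56 (SE 0.32, adjusted p = 0.258). The log2 SD of IFIT1 was 0.36, 0.80 and 0.34 in the estradiol, tamoxifen and combination arms, against 0.29 in the controls. The SE pools all 4 arms. IFIT3, which binds to IFIT1 and steadies it, had signals of 438, 487, 706 and 966 in the estradiol arm, 769, 851, 1899 and 886 in the tamoxifen arm and 684, 689.8, 744 and 1415 in the combination arm, against 1067, 1632, 1516 and 1102 in the control arm. It fell by 1.07 (SE 0.31, adjusted p = 0.0207) with estradiol, with no overlap between the arms, and did not pass with tamoxifen at -0.35 or the combination at -0.63. That call was lost without control 2, control 3, estradiol 1 or estradiol 2, with adjusted p up to 0.0686.

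IFIT2, a partner of IFIT1 and IFIT3, went the other way by its brightest probe set. Its signals were 561, 569, 429 and 468 in the estradiol arm, 549.96, 392, 383 and 408 in the tamoxifen arm and 401, 461, 445 and 445 in the combination arm, against 378, 363, 344 and 319.8 in the control arm. All 12 treated arrays lay above all controls, tamoxifen 2 and 3 by little. IFIT2 rose by 0.52 (SE 0.13, adjusted p = 0.00873) with estradiol, and its changes with tamoxifen and the combination were 0.29 (SE 0.13, adjusted p = 0.152) and 0.32 (SE 0.13, adjusted p = 0.107). The other probe sets annotated to IFIT2 moved in both directions. The next brightest had signals of 229, 190.1, 311 and 328 with estradiol, 237, 223, 324 and 250.2 with tamoxifen and 214, 226, 153 and 281 with the combination, against 462, 647, 421 and 375 in the controls. It fell, by log2 changes of -0.84 (SE 0.22, adjusted p = 0.0113), -0.85 (SE 0.22, adjusted p = 0.0190) and -1.11 (SE 0.22, adjusted p = 0.00398), and the third brightest fell with estradiol and the combination, at -0.45 (SE 0.15, adjusted p = 0.0424) and -0.60 (SE 0.15, adjusted p = 0.0154). The fourth brightest rose, at 1.16 (SE 0.22, adjusted p = 0.00173) with estradiol and 0.89 (SE 0.22, adjusted p = 0.0145) with the combination. With the mean of its probe sets IFIT2 was not called with estradiol, at 0.35 (adjusted p = 0.0848). No direction can be given for the gene from these probe sets.

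The OAS enzymes make a messenger that activates RNase L, which degrades RNA. OAS1 had signals of 1203, 1179, 1331 and 1381 in the estradiol arm, 1591, 1208, 1566 and 1305 in the tamoxifen arm and 1396, 1566, 1594 and 1319 in the combination arm, against 1939, 1722, 1799.9 and 1706 in the control arm by its brightest probe set. It fell by 0.49 (SE 0.10, adjusted p = 0.00302) with estradiol and 0.34 (SE 0.10, adjusted p = 0.0374) with tamoxifen, without overlap of the arms, and had -0.29 (SE 0.10, adjusted p = 0.0685) with the combination. The tamoxifen call was lost in 6 of 8 fits without 1 array, with adjusted p up to 0.0981. Its second brightest probe set, far dimmer, had signals of 145, 143, 82.4 and 63.0 with estradiol, 97.9, 161, 231 and 173 with tamoxifen and 80.2, 48.9, 95.0 and 214 with the combination, against 61.1, 165, 129 and 99.4 in the controls. There tamoxifen 3 and combination 4 were the highest of the 16, as in IFI44, while the brightest probe set did not single them out. The dimmer probe set of DDX60 had signals of 43.9, 57.8, 46.2 and 59.9 with estradiol, 43.0, 31.5, 123 and 30.0 with tamoxifen and 43.9, 47.2, 36.7 and 79.3 with the combination, against 79.9, 77.0, 84.9 and 51.3 in the controls, and there too tamoxifen 3 was the highest array. With the mean of all its probe sets OAS1 was not called with estradiol, at -0.17 (adjusted p = 0.659), nor DDX60 with the combination, at 0.017 (adjusted p = 0.961). In the same setting the changes with tamoxifen turned sign, to 0.19 for OAS1 and -0.059 for DDX60. OAS2 and OAS3 did not pass in any comparison with control, with changes from -0.23 to 0.062. A dimmer probe set of OAS3 fell with estradiol, at -0.86 (SE 0.27, adjusted p = 0.0287).

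**Figure D4:**
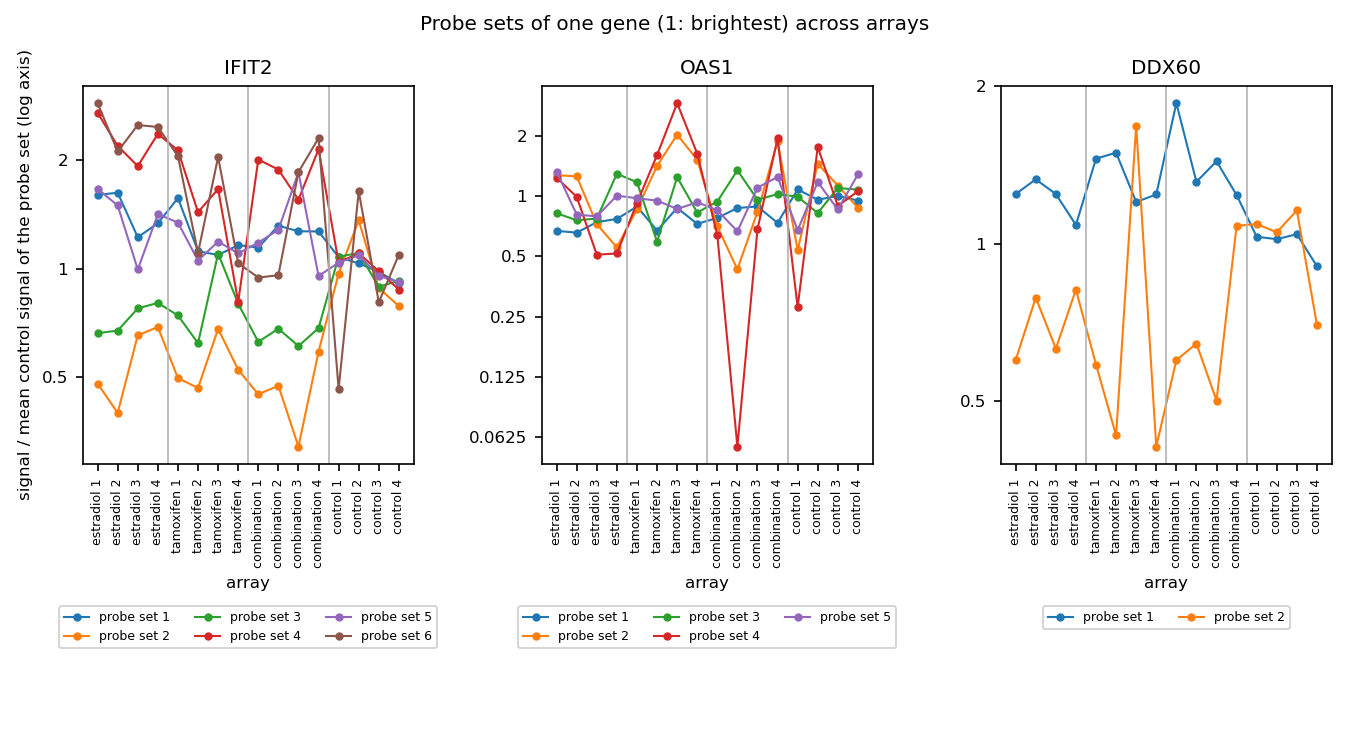
Signal of every probe set annotated to IFIT2, OAS1 and DDX60 on each array, divided by the probe set's mean over the 4 controls, on a log axis, with probe set 1 the brightest. Probe sets 2 and 3 of IFIT2 lie below 1 on most treated arrays and the others mostly above it. The dimmer probe sets 2 and 4 of OAS1 and probe set 2 of DDX60 peak in tamoxifen 3, where probe set 1 does not.

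In the ISG15 system, HERC6, a HERC-family ligase and the main ISG15 ligase of mice, had signals of 102, 124, 105 and 112 in the estradiol arm, 120.3, 74.2, 395 and 86.5 in the tamoxifen arm and 139, 126, 79.7 and 144 in the combination arm, against 281, 286, 240.2 and 265 in the control arm. All estradiol and combination arrays lay below all controls, as did 3 tamoxifen arrays, while tamoxifen 3 was the highest of the 16. HERC6 fell by 1.24 (SE 0.37, adjusted p = 0.0217) with estradiol and by 1.13 (SE 0.37, adjusted p = 0.0474) with the combination, and had -0.98 (SE 0.37, adjusted p = 0.0883) with tamoxifen. The estradiol call was lost without estradiol 1 (adjusted p = 0.0528), and the combination call in all 8 fits without 1 array, with adjusted p up to 0.129. The SE of these calls pools the spread of all 4 arms, and these fits left out no tamoxifen array. The log2 SD of HERC6 was 0.12, 1.06 and 0.38 in the estradiol, tamoxifen and combination arms, against 0.11 in the controls. ISG15 itself did not pass, at -0.29 (SE 0.50, adjusted p = 0.715), -0.020 (SE 0.50, adjusted p = 0.986) and -0.42 (SE 0.50, adjusted p = 0.614) for estradiol, tamoxifen and the combination.

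Among the other antiviral effectors, MX2, a GTPase that restricts lentiviruses, had signals of 162, 94.7, 97.6 and 153 in the estradiol arm, 132, 95.4, 265 and 139 in the tamoxifen arm and 134, 108, 90.7 and 147 in the combination arm, against 252, 338, 177 and 171 in the control arm. The estradiol and combination arrays lay below all controls, and the tamoxifen arm overlapped them through tamoxifen 3. MX2 fell by 0.85 (SE 0.30, adjusted p = 0.0456) with estradiol and 0.91 (SE 0.30, adjusted p = 0.0482) with the combination. These calls were lost in 4 and 7 of 8 fits without 1 array, with adjusted p up to 0.126 and 0.125. MX1, with the widest spread of the 29 genes in the tamoxifen and control arms, did not pass in spite of changes of -1.33 (SE 0.62, adjusted p = 0.128), -0.61 (SE 0.62, adjusted p = 0.557) and -1.09 (SE 0.62, adjusted p = 0.251). SAMD9L, an antiviral protein that also limits cell growth, had signals of 471, 417, 449.7 and 495 in the estradiol arm, 260.03, 362, 535 and 359 in the tamoxifen arm and 331, 288, 329 and 458 in the combination arm, against 465, 678, 555 and 559 in the control arm. It fell by 0.60 (SE 0.19, adjusted p = 0.0475) with tamoxifen and 0.68 (SE 0.19, adjusted p = 0.0240) with the combination, calls lost in 6 and 4 of 8 such fits (adjusted p up to 0.139 and 0.0739), and had -0.29 (SE 0.19, adjusted p = 0.290) with estradiol. With the mean of all probe sets SAMD9L was not called, at -0.24 (adjusted p = 0.566) with tamoxifen and -0.25 (adjusted p = 0.523) with the combination.

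ISG20, an exonuclease of RNA that is also known as an estrogen-regulated transcript, moved the other way. Its signals were 216, 340.3, 242 and 654 in the estradiol arm, 1170.2, 448, 792 and 463 in the tamoxifen arm and 595, 498, 850.1 and 590.4 in the combination arm, against 137, 192, 230.4 and 142 in the control arm. Every tamoxifen and combination array lay above all controls, and estradiol 1 overlapped them. ISG20 rose by 1.92 (SE 0.34, adjusted p = 0.00293) with tamoxifen and 1.83 (SE 0.34, adjusted p = 0.00303) with the combination, and had 0.92 (SE 0.34, adjusted p = 0.0617) with estradiol. The highest estradiol and tamoxifen arrays were estradiol 4 and tamoxifen 1, the arrays that stood apart in muscle and epithelium markers. Without tamoxifen 1 the change with tamoxifen was 1.65 (adjusted p = 0.00936). Epithelium scores were -0.068, 0.37, -0.13 and 0.80 with estradiol, 0.85, -0.28, 0.39 and -0.078 with tamoxifen and 0.088, 0.36, 0.39 and 0.22 with the combination, against -0.77, -0.70, -0.77 and -0.66 in the controls. The part of epithelium in the ISG20 values was not tested.

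BST2, or tetherin, which holds budding virions at the cell surface, TRIM22, a ubiquitin ligase, and CMPK2, a mitochondrial nucleotide kinase, did not pass against control. Their changes ran from -0.85 to 0.37. IFI27, IFI35, IFI44 and the apoptosis-related XAF1 likewise did not pass, with changes from -1.10 to 0.49. The transcription factors STAT2 and IRF7, which carry the signal, also missed the threshold, at 0.35, -0.071 and -0.20 for STAT2 and -0.023, -0.0076 and -0.081 for IRF7. Another probe set of IRF7 was less precise and missed it too. Its changes were -0.022, 0.65 and -0.27 with estradiol, tamoxifen and the combination (SE 0.55 each). CXCL10, a chemokine that draws activated T cells, had signals of 47.4, 42.6, 111 and 49.8 in the estradiol arm, 30.6, 51.8, 41.6 and 51.4 in the tamoxifen arm and 22.9, 22.4, 41.8 and 101 in the combination arm, against 57.4, 186, 53.9 and 107 in the control arm. Control 2 was the highest array and combination 1 and 2 the lowest. All 4 tamoxifen arrays lay below all controls, and the other treated arms overlapped them. Its changes were -0.58 (SE 0.45, adjusted p = 0.375), -0.97 (SE 0.45, adjusted p = 0.163) and -1.09 (SE 0.45, adjusted p = 0.110).

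The comparisons between the treated arms ask what tamoxifen adds to estradiol, what estradiol adds to tamoxifen, and how the drugs differ. For the combination against estradiol 1 of 29 genes passed, where 1.33% of all tested genes did. This was DHX58, which rose by 0.54 (SE 0.10, adjusted p = 0.0247), with signals of 885, 901, 868 and 873 in the combination arm against 614, 601, 684 and 528 in the estradiol arm. The call was lost in 7 of 8 fits without 1 array, with adjusted p up to 0.0813. For the combination against tamoxifen limma called 0 of 29, at 0% of all genes. For tamoxifen against estradiol limma called 0 of 29, at 0.710% of all genes, with a smallest adjusted p of 0.217. The median changes of the 29 genes were -0.031, -0.12 and 0.13 in these comparisons, and -0.023, 0.0080 and -0.027 over all genes. Without tamoxifen 3 the median was 0.029 for the combination against tamoxifen and -0.045 for tamoxifen against estradiol, so that both turned sign. For the combination against estradiol it ran from -0.10 to 0.062 over the 8 fits without 1 array.

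The interaction asks whether the change with estradiol differs when tamoxifen is given too. It is the change of the combination against tamoxifen minus that of estradiol against control. It passed in 3 of 29 genes, all above 0, where 11.3% of all tested genes passed, 4.77% with values above 0. PARP12 had an interaction of 0.85 (SE 0.23, adjusted p = 0.0327): estradiol changed it by -0.12 in the presence of tamoxifen and by -0.97 without. In OAS1 the interaction was 0.55 (SE 0.15, adjusted p = 0.0284), with 0.056 in the presence of tamoxifen and -0.49 without, read from the brightest probe set. DHX58 had 0.54 (SE 0.14, adjusted p = 0.0299), with 0.34 in the presence of tamoxifen and -0.21 without. Among the 29 genes the interaction was called in 0 to 4 over the fits without 1 array, where 6.77 to 16.5% of all tested genes passed. The calls for PARP12, OAS1 and DHX58 were lost in 8, 6 and 10 of the 16 fits without 1 array, with adjusted p up to 0.0658, 0.0618 and 0.0591.

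Genes of the same pathway outside the list were examined beside it. Of 28 further type I response genes 18 were tested. Of these, 3 fell and 1 rose with estradiol, 1 fell and 0 rose with tamoxifen, and 3 fell and 1 rose with the combination. Of all tested genes 29.7%, 16.2% and 19.7% passed in these comparisons. The median changes of the 18 were -0.34, -0.39 and -0.36. SP110, a nuclear body protein of leukocytes and other cells, had signals of 603, 551, 737 and 721 with estradiol, 617, 915, 1021 and 762 with tamoxifen and 737, 750.1, 651 and 879 with the combination, against 1301, 1421, 1562 and 1315 in the controls. All treated arrays lay below all controls, and SP110 fell, at -1.10 (SE 0.15, adjusted p = 0.000176), -0.77 (SE 0.15, adjusted p = 0.00433) and -0.89 (SE 0.15, adjusted p = 0.00146). The scores of these 18 genes were -0.050, -0.10, -0.034 and -0.021 with estradiol, -0.27, -0.18, 0.23 and -0.15 with tamoxifen and -0.16, -0.17, -0.26 and 0.15 with the combination, against 0.25, 0.37, 0.19 and 0.20 in the controls. Tamoxifen 3, combination 4 and control 2 were again the highest of their arms.

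Others of these genes went separate ways. LGALS3BP, a secreted glycoprotein that binds galectins, rose with estradiol at 1.12 (SE 0.26, adjusted p = 0.00533) and with the combination at 1.16 (SE 0.26, adjusted p = 0.00766). TRIM21, a receptor for antibodies within the cell, fell by log2 changes of -0.50 (SE 0.13, adjusted p = 0.0103) and -0.51 (SE 0.13, adjusted p = 0.0150) in the same comparisons. IFITM1, which keeps viruses from fusing with membranes, fell with the combination at -0.65 (SE 0.16, adjusted p = 0.0147). In the tamoxifen arm its signals were 3136, 2597, 4848 and 2416, with tamoxifen 3 the highest. Of 14 tested type II interferon response genes 1 rose and 2 fell with estradiol, 1 rose and 0 fell with tamoxifen, and 0 rose and 2 fell with the combination. WARS1, a tRNA synthetase that interferon gamma induces, was the gene that rose. Its changes were 0.58 (SE 0.12, adjusted p = 0.00319) with estradiol and 0.50 (SE 0.12, adjusted p = 0.0155) with tamoxifen. Of all tested genes 29.7%, 16.2% and 19.7% passed for estradiol, tamoxifen and the combination. The score of the type II genes had the same leading arrays as the type I genes. GBP1 is on both the type II list and the list of 18 further type I genes, so these 2 scores are not independent. Control 2 (0.40), tamoxifen 3 (0.18) and combination 4 (0.082) were the highest of their arms. The next highest were control 4 (0.23), tamoxifen 4 (0.027) and combination 1 (-0.20).

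Upstream of the response, 2 of the 14 listed ligands and receptors were bright enough to be tested, and neither passed in any comparison. The receptor subunit gene IFNAR2 had signals of 152, 203, 113 and 185 with estradiol, 105, 106, 127 and 109 with tamoxifen and 113, 84.2, 101 and 90.1 with the combination, against 97.6, 178, 136 and 129 in the controls. The ligand gene IFNB1, below the filter, ran from 2.05 to 18.7 over all arrays, and was at 13.0 in tamoxifen 3. Of the kinases, transcription factors and upstream sensors 16 were tested. With estradiol 2 rose and 3 fell, with tamoxifen 1 rose and 1 fell, and with the combination 1 rose and 1 fell. Over all tested genes the shares called were 29.7%, 16.2% and 19.7%. AIM2, a sensor of cytosolic DNA that assembles an inflammasome, had signals of 1997, 2686, 1336 and 3042 with estradiol, 2905, 1174, 2191 and 1504 with tamoxifen and 1882, 2158, 1934 and 1902 with the combination, against 799, 741, 801 and 594 in the controls. Every treated array lay above every control, and AIM2 rose by log2 changes of 1.56 (SE 0.26, adjusted p = 0.000696), 1.32 (SE 0.26, adjusted p = 0.00476) and 1.43 (SE 0.26, adjusted p = 0.00248). IRF1, an early transcription factor of the response, fell with tamoxifen at -0.52 (SE 0.16, adjusted p = 0.0369). Of 4 tested brakes of the pathway PIAS1, a SUMO ligase, fell in all 3 comparisons with control, at -0.40 (SE 0.074, adjusted p = 0.00148), -0.37 (SE 0.074, adjusted p = 0.00566) and -0.33 (SE 0.074, adjusted p = 0.00859).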

How the data were processed

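Endometrial RNA of 16 animals, 1 array each, was measured on an Affymetrix array. The authors deposited a table of probe set signal intensities on a linear scale, made with GCOS, Affymetrix Expression Console and MAS5, per the submitters' processing notes. The mean after trimming 2% from each end was 250.01 on every array. No further normalization was applied.

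A pseudocount of 4.80, the 10th percentile of all values, was added before taking log2. The dimmest 40% of probe sets, by mean log2 value, were dropped, which left 31659. limma 3.58.1 in R 4.3.3 was fitted to all 16 arrays with 1 mean per arm, 12 residual degrees of freedom and a variance trend, with Benjamini-Hochberg adjustment at 0.05. For background shares each of 10705 genes was read from its brightest probe set. The p-values measure the spread between animals, and nothing in the labels pairs them.

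The genes and lists were chosen with earlier results of these data known. Values on every array are given for genes called in any comparison or in the interaction, the 2 with the highest and the 2 with the lowest change in each comparison with control, and the 5 with the widest gap between the highest array of an arm and the next. Pathway genes called were named by smallest p-value, at most 6 per comparison, with IFNAR2. OAS2, OASL, RIGI, EPSTI1, IFNB1, PTPRC, EPCAM and DCN were named after their values were seen. Promoter motifs were not analysed here. The alternatives tried were other pseudocounts, no filter, quantile normalization, no trend, array weights, only the arms compared, the mean of all probe sets, a replicate block, and leaving out arrays.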

Additional observations from a re-analysis of the deposited data

Results flagged for a closer look

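Of 116 groups of 4 arrays, 1 for each tested gene and arm, 10 held an array whose gap to the nearest other exceeded Dixon's 95% critical value on the log2 scale (8.62%). Over all tested genes 5.72% of such groups did, and chance flags about 1 in 20. The 29 genes were chosen with results known and are not independent of each other. Tamoxifen 3 was the high array in 5 of them, with signals of 1856 for IFI27, 935 for IFI44, 710.1 for IFIT1, 1899 for IFIT3 and 312 for CMPK2. Combination 4 stood apart in IFIT3 at 1415. Estradiol 3 was high in CXCL10 at 111 and estradiol 1 in CMPK2 at 89.4, while estradiol 4 was low in OAS2 at 51.9. Control 4 was low in DDX60 at 686. In the score over the 29 genes, tamoxifen 3 at 0.69 and control 2 at 0.56 lay apart from the rest of their arms.

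The change with estradiol differed by the presence of tamoxifen in limma's interaction test for PARP12 (0.85 on the log2 scale), OAS1 (0.55) and DHX58 (0.54). For OAS1 this holds for the brightest probe set, and the mean of its probe sets gave -0.23.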

How the results depend on the processing

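Of 27 calls of single genes, 8 held under all alternatives and 19 were lost under some. No call was lost with pseudocounts of 32 or 1. With the mean of all probe sets of a gene, 5 genes passed for estradiol and 3 for tamoxifen against control, and the changes of OAS1 (0.19) and DDX60 (-0.059) with tamoxifen and the interaction of OAS1 (-0.23) turned sign. Without estradiol 4 and tamoxifen 1, 3 genes passed for tamoxifen against control, 2 for the combination against estradiol and 1 for the interaction. For the combination against control, 5 passed with no filter and 5 with no trend. For the combination against estradiol, 2 passed with array weights and 0 with only the arms compared. The score of estradiol 4 was -0.19 with no filter. Except where a setting removes arrays or probe sets by its construction, the cause was not tested.

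Leaving out 1 array at a time gave 6 to 9 genes for estradiol, 2 to 8 for tamoxifen and 4 to 7 for the combination against control. It gave 0 to 1 for the combination against estradiol, 0 to 0 for the other pairs of treated arms, and 0 to 4 for the interaction. Same-numbered arrays of different arms had deviations correlated between -0.30 and 0.12, with 2 of 24 pairs above 0.1. For 0 of 16 arrays was the same-numbered array the best correlated one in every other arm. In single arms it was for some, as for control 1 with estradiol 1 (0.038) and tamoxifen 1 (0.053). Control 2 likewise correlated best with estradiol 2 (0.054) and tamoxifen 2 (0.064) in those arms. With the replicate block, 7 genes passed for estradiol, 5 for tamoxifen and 6 for the combination, each against control, 1 for the combination against estradiol, 0 for the other pairs and 2 for the interaction. Beyond the main fit and the fits without 1 array, no share of all tested genes stands beside these counts. The replicates of 4 limit the counts, and dim probe sets near background carry little information.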
